A study of Sus scrofa with 9 samples.

Results

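Genes of the Wnt signalling family were followed in porcine primary preadipocytes, the precursors of fat cells, in which the long non-coding RNA lnc*PLAAT3*-AS had been overexpressed or knocked down. Members were every gene of the deposited table whose symbol begins with WNT, FZD, SFRP, DKK or RSPO and a number, together with *WIF1*, *FRZB*, *LRP5*, *LRP6*, *AXIN2*, *LEF1*, *TCF7*, *NKD1*, *NKD2*, *ROR1*, *ROR2* and *PORCN*. This gave 49 of 16562 genes: 17 ligands, 10 frizzled receptors, 4 co-receptors, 9 secreted inhibitors, 3 R-spondins, 1 acyltransferase and 5 targets or feedback regulators. The rule uses gene symbols only, but it was chosen with earlier results of these data known. Of the 49 members, 38 had enough counts to be tested, as had 12721 of all genes.

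Wnt ligands are secreted, lipid-modified proteins that bind frizzled receptors on the cell surface. With the co-receptors *LRP5* or *LRP6* they stabilise beta-catenin, which enters the nucleus and activates transcription together with TCF and LEF factors; with *ROR1* or *ROR2* some of them signal without beta-catenin. In mouse and human preadipocytes, Wnt signalling through beta-catenin is known for holding back the differentiation into fat cells, and many secreted proteins, among them the SFRP and DKK families, tune it outside the cell. The roles given for single genes are known mainly from mouse and human studies.

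The cells came from the back fat of female Rongchang piglets and were cultured in medium with fetal bovine serum, and the labels place every library at day 8 of differentiation with insulin, IBMX and dexamethasone. The 3 groups had 3 libraries each: control (genotype WT, named a blank control in the series' design and a negative control in the study), overexpression (a plasmid carrying lnc*PLAAT3*-AS) and siRNA (an siRNA against it, labelled inhibition). The same control served both comparisons, and no library of an empty plasmid was used here. The study gives a single pig as the source of all cells, so p-values measure only the spread between these samples and not between animals. The labels could not be checked against the level of lnc*PLAAT3*-AS, which was not analysed here.

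Each library held between 16724902 and 17495882 counts. Pairs of control libraries varied by 5.25 to 13 times the counting noise and pairs of siRNA libraries by 4.60 to 8.37 times, but pairs of overexpression libraries by only 1.41 to 1.60 times, and it is not known whether the overexpression libraries were separate cultures. The labels call the cells adipocytes, yet *ADIPOQ*, the gene of adiponectin, had 11 counts over the control, 9 over the overexpression and 0 over the siRNA libraries, while 16 fibroblast genes summed to 81657 to 86764 CPM in control (CPM, library-scaled counts with TMM factors), 117749 to 120297 CPM in overexpression and 54933 to 58135 CPM in siRNA. These sums are mostly collagen, and more of the list moved the other way: of 14 tested, 4 rose and 9 fell with overexpression, and 7 rose, among them *PDGFRA*, *DCN* and *LUM*, and 5 fell with siRNA. Beside these and the marker counts below, 23.9% of all tested genes rose and 23.4% fell with overexpression. With siRNA 29.5% rose and 29.9% fell. The 15 adipocyte genes summed to 189 to 219, 211 to 223 and 417 to 594 CPM in the same order, with *LPL*, the lipoprotein lipase, the largest part in siRNA. It was the only 1 of 10 tested that rose with siRNA, while 6 fell, among them *PPARG*, *CEBPA* and *PLIN1*. The fall of *PLIN1* rested on 12 counts over the control and 2 over the siRNA libraries, and it passed the expression filter only through overexpression. Marker lists of other cell types moved with the groups. Summed smooth muscle genes, such as *ACTA2*, lay at 10851 to 11586 CPM in control, 12047 to 12088 CPM in overexpression and 1627 to 1811 CPM in siRNA, where 9 of 10 fell. Skeletal muscle genes, nearly all of it *DES*, lay at 641 to 803, 1338 to 1386 and 0.716 to 1.22 CPM. Summed macrophage genes lay at 46.5 to 58.0 CPM in control, 75.9 to 79.9 CPM in overexpression and 62.7 to 69.0 CPM in siRNA. Most of the control and siRNA sums was *CD14*, which averaged 36.7 CPM in control, 27.3 CPM in overexpression and 47.2 CPM in siRNA. Of 14 tested, 2 rose with siRNA, *CD14* and *TYROBP*, and 1 fell, *MRC1*. With overexpression 10 of 14 tested rose at least 2-fold, beside 2.61% of all tested genes. *CD163*, *C1QA*, *C1QB* and *SIGLEC1* had 0 counts in control and at most 2 over the siRNA libraries. *C1QC*, *MSR1*, *CSF1R* and *FCER1G* had at most 11 counts over either group. These genes passed the expression filter only through the overexpression libraries, so that their rise was built in. Endothelial genes summed to at most 36.3 CPM in any library. In bulk RNA, fewer cells of a type and less RNA per cell cannot be told apart, and the part of these shifts in the Wnt results was not tested.

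With the siRNA the cells held a different set of Wnt transcripts than in control. Compared with the control libraries, *WNT5A*, *WNT11*, *FZD5*, *SFRP1*, *FRZB*, *AXIN2*, *WIF1* and *RSPO3* rose at least 2-fold in the siRNA libraries. *SFRP2*, *DKK2*, *WNT2B*, *FZD2*, *FZD8*, *SFRP5*, *NKD2*, *WNT10B*, *NKD1*, *ROR1*, *ROR2* and *WNT3* fell at least 2-fold. Overexpression moved fewer members that far: *SFRP5* rose, and *WNT5A* and *RSPO1* fell.

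Changed genes are those with an adjusted p under 0.05 in edgeR's quasi-likelihood test with Benjamini-Hochberg adjustment over the 12721 genes, the source of every adjusted p given here. With siRNA, 31 of 38 tested members changed (12 rose and 19 fell), where 59.4% of all tested genes did (29.5% rose and 29.9% fell). At least 2-fold changes were found in 20 members (8 rose and 12 fell), beside 15.2% of all tested genes (7.67% rose and 7.52% fell). The median size of the log2 fold change was 1.20 over the tested members and 0.33 over all tested genes, and the signed medians were -0.21 and -0.00064. The siRNA and control libraries did not overlap in 31 members, beside 61.3% of all tested genes. With overexpression, 21 of 38 members changed (11 rose and 10 fell) beside 47.3% of all tested genes (23.9% rose and 23.4% fell). At least 2-fold, 1 rose and 2 fell, 3 members in all, beside 4.5% of all tested genes (2.61% rose and 1.89% fell). The median size of the change was 0.37 over the members and 0.25 over all genes, the signed medians were 0.075 and 0.0060, and the groups did not overlap in 27 members, beside 57.1% of all tested genes. The 3 overexpression libraries were also summed to 1, because they lay so close to each other. Fewer members changed against control in that fit, which has 1 library in the group, so the drop is no result about the members. These counts cover the members that passed the expression filter, not all 49: *WNT11* passed it only through the siRNA libraries and *WNT3* only through the control libraries, so that a difference in them was built in. No siRNA library of *DKK2*, *WNT2B* or *WNT10B* and no overexpression library of *WNT7B* reached the cutoff of the filter. These members were kept through the other groups, which favours a lower value in the group that missed the cutoff.

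**Figure D1:**
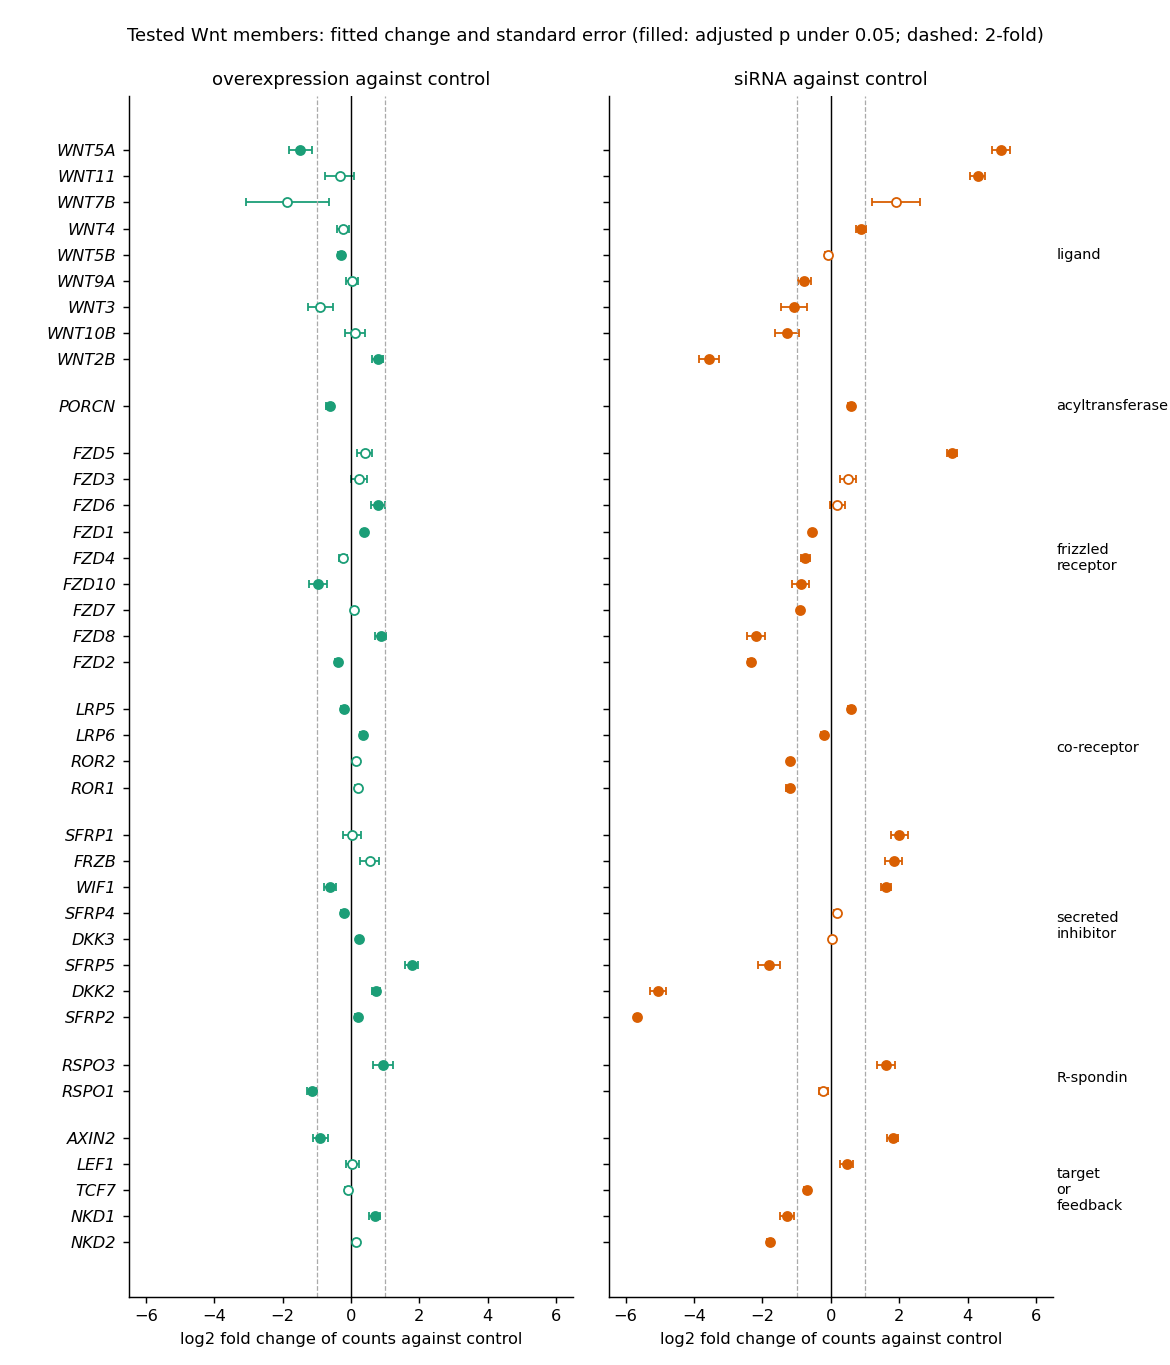
Fitted log2 fold change (horizontal axis, with standard error bars) of each of the 38 tested Wnt members, ordered by role, for overexpression against control (left) and siRNA against control (right). Filled points passed an adjusted p of 0.05 and dashed lines mark a 2-fold change. In the siRNA panel 20 filled points lie beyond the dashed lines, from *SFRP2* at -5.66 to *WNT5A* at 4.98, and in the overexpression panel 3 do.

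Among the ligands, *WNT5A*, a ligand best known for signalling without beta-catenin, was the member that rose most. It measured 11.5, 12 and 23.8 CPM in control replicates 1 to 3, 5.0, 5.91 and 6.03 CPM in overexpression and 482, 475 and 539 CPM in siRNA. Every siRNA library was thus far above every other library, and the overexpression libraries lay below all control libraries. The rise with siRNA was 31.6-fold (log2 fold change 4.98 ± 0.26 SE, adjusted p = 2.99e-06). The fall with overexpression was 2.79-fold (log2 fold change -1.48 ± 0.34 SE, adjusted p = 0.0114), and it was lost with the overexpression libraries summed to 1 (adjusted p = 0.0946). In the RefSeq annotation of the pig the span of *WNT5A* overlaps a long non-coding RNA that has no row in the table, and the use of strand in counting is not given, so reads of the pair cannot be told apart.

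*WNT11*, a ligand that guides cell movements in development, was close to the detection limit outside the siRNA group. It measured 0.516, 0.292 and 0.350 CPM in control, 0.230, 0.401 and 0.290 CPM in overexpression and 7.04, 8.57 and 7.63 CPM in siRNA. The siRNA libraries stood clear of the rest (log2 fold change 4.30 ± 0.22 SE, adjusted p = 5.34e-13), and control and overexpression overlapped (log2 fold change -0.33 ± 0.43 SE, adjusted p = 0.59). *WNT11* passed the expression filter only through the siRNA libraries, so that a higher value there was built in. *WNT4*, a ligand of kidney and gonad development, measured 2.81, 2.57 and 3.32 CPM in control, 2.41, 2.29 and 2.72 CPM in overexpression and 5.25, 5.57 and 5.30 CPM in siRNA. It rose 1.85-fold with siRNA (0.89 ± 0.15, adjusted p = 3.1e-05) and did not pass with overexpression (-0.23 ± 0.17, adjusted p = 0.284).

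*WNT7B* was uneven among its replicates. It measured 0.229, 0.233 and 1.69 CPM in control, 0.230, 0.172 and 0.174 CPM in overexpression and 1.61, 1.92 and 4.54 CPM in siRNA, with replicate 3 far above the others in both the control and the siRNA group. Neither comparison with control passed (log2 fold change 1.91 ± 0.71 SE, adjusted p = 0.0501 for siRNA and -1.86 ± 1.22, adjusted p = 0.252 for overexpression). Without control replicate 3 the siRNA difference was 3.50 (adjusted p = 2.1e-05) and the overexpression difference shrank to -0.26 (adjusted p = 0.846), and without siRNA replicate 3 the siRNA difference was 1.29 (adjusted p = 0.0692). With control replicate 3 left in, leaving out siRNA replicate 1 or siRNA replicate 2 gave the siRNA difference an adjusted p of 0.0327 or 0.0496. The call also depended on the method. The siRNA difference passed in edgeR's exact test (adjusted p = 0.00209) and without TMM factors (adjusted p = 0.0389). It passed as well in limma on log2(FPKM + 1) and log2(FPKM + 0.1) (adjusted p = 0.0233 and 0.0121). The overexpression difference passed in the exact test (adjusted p = 0.0227). Within the control and within the siRNA group, epithelial markers were also highest in replicate 3, but siRNA replicate 3 lay below every control library. The 7 in the table summed to 26.1, 30.2 and 80.8 CPM in control, 21.6, 18.6 and 21.4 CPM in overexpression and 9.01, 7.31 and 25.8 CPM in siRNA. Most of that was *KRT5*, *KRT8* and *CDH1*, while *EPCAM* was at 0 to 0.233 CPM, and their part in the *WNT7B* values was not tested.

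The ligands that fell with siRNA each averaged under 1 FPKM (a count scaled for gene length) in control. *WNT2B*, which signals through beta-catenin, measured 4.01, 5.13 and 2.92 CPM in control, 7.36, 6.82 and 6.66 CPM in overexpression and 0.239, 0.359 and 0.407 CPM in siRNA. The 3 groups did not overlap: it fell 11.7-fold with siRNA (log2 fold change -3.55 ± 0.29 SE, adjusted p = 9.7e-10) and rose 1.73-fold with overexpression (0.79 ± 0.16, adjusted p = 0.00049). Its span overlaps that of *ST7L*, which had 541, 514 and 544 counts over the control, overexpression and siRNA libraries, so that the neighbour did not follow it.

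*WNT10B*, the ligand whose loss or gain is known to shift fat and bone formation in mice, was rare in these cells. It measured 0.631, 1.05 and 0.933 CPM in control, 1.03, 0.975 and 0.811 CPM in overexpression and 0.298, 0.359 and 0.407 CPM in siRNA. All siRNA libraries lay below the others (log2 fold change -1.27 ± 0.36 SE, adjusted p = 0.00417), while control and overexpression overlapped (0.11 ± 0.29, adjusted p = 0.777). *WNT3*, a ligand of the embryonic body axis and limb, measured 0.688, 0.700 and 0.875 CPM in control, 0.402, 0.229 and 0.579 CPM in overexpression and 0.358, 0.300 and 0.407 CPM in siRNA. The fall with siRNA (log2 fold change -1.07 ± 0.38 SE, adjusted p = 0.02) rested on few counts: the adjusted p was 0.0696 without control replicate 3 and 0.0672 without siRNA replicate 2, and DESeq2 gave 0.128. With overexpression it did not pass (-0.89 ± 0.37, adjusted p = 0.0517), but did without overexpression replicate 3 (-1.24, adjusted p = 0.0329). *WNT3* passed the expression filter only through the control libraries, so that lower values in the other groups were built in.

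*WNT9A*, a ligand of joint and cartilage development, fell with siRNA from 2.98 ± 0.303 to 1.74 ± 0.116 CPM (SD, n = 3; log2 fold change -0.77 ± 0.19 SE, adjusted p = 0.00162) and was at 3.05 ± 0.495 CPM with overexpression. *WNT5B*, the closest relative of *WNT5A* and a ligand reported to favour fat cell formation in mouse cells, did not share its rise. It measured 19.3 ± 1.63 CPM in control, 15.7 ± 0.551 CPM in overexpression and 18.1 ± 1.22 CPM in siRNA, a fall with overexpression (log2 fold change -0.30 ± 0.089 SE, adjusted p = 0.00896; adjusted p = 0.0944 with those libraries summed to 1) and no passing difference with siRNA (-0.088 ± 0.088, adjusted p = 0.402).

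The make-up of the ligands as a whole therefore differed between the groups. Levels of different genes are compared in FPKM, which the authors scaled for gene length. The 17 ligands summed to 16.3 ± 0.570 FPKM in control (SD, n = 3), 13.1 ± 0.336 FPKM in overexpression and 107 ± 10.1 FPKM in siRNA. *WNT5B* supplied 57.1% ± 7.51 of that sum in control and 57.8% ± 1.18 in overexpression, but 8.15% ± 0.322 in siRNA. *WNT5A* supplied 16.8% ± 6.75, 7.45% ± 0.954 and 84.8% ± 0.641 in the same order. *WNT2B* came next in overexpression with 12.5% ± 0.935, and *WNT11* followed *WNT5B* in siRNA with 3.90% ± 0.433.

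**Figure D2:**
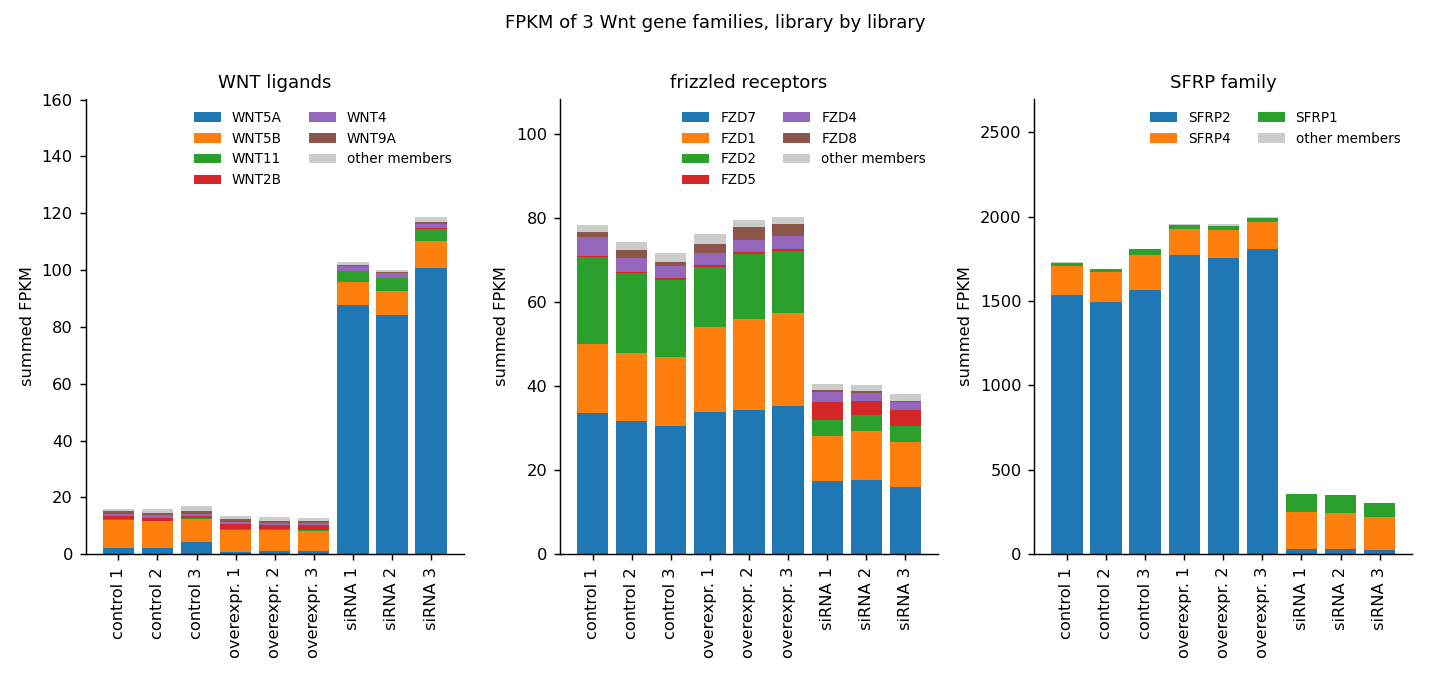
Summed FPKM (vertical axis) of the WNT ligands, the frizzled receptors and the SFRP family including *FRZB*, with 1 stacked bar for each of the 9 libraries and 1 colour per gene. The ligand bars average 16.3 FPKM in control and 107 FPKM in siRNA, where they consist mostly of *WNT5A*, the frizzled bars average 74.7 and 39.6 FPKM with *FZD7* the largest block in all libraries, and in the SFRP bars most of the *SFRP2* block is gone in siRNA.

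Ligands leave the cell only after *PORCN*, an enzyme of the endoplasmic reticulum, has attached a fatty acid to them. *PORCN* measured 21.7, 24.2 and 29.1 CPM in control, 15.5, 16.9 and 16.4 CPM in overexpression and 36.4, 39.1 and 38.0 CPM in siRNA. The groups did not overlap, with a fall of 1.54-fold in overexpression (log2 fold change -0.62 ± 0.095 SE, adjusted p = 2.15e-05) and a rise of 1.51-fold in siRNA (0.60 ± 0.087, adjusted p = 5.27e-06). *WLS*, the carrier that takes the finished ligand to the cell surface and no member by the rule, stood at 198 ± 11.4 CPM in control, 203 ± 3.40 CPM in overexpression and 552 ± 13.9 CPM in siRNA (SD, n = 3). It rose with siRNA (1.48 ± 0.059, adjusted p = 5.05e-15) and did not pass with overexpression (0.040 ± 0.059, adjusted p = 0.602).

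Frizzled receptors carry the ligand-binding domain at the cell surface, and 6 of the 9 tested fell with siRNA while 1 rose, where 29.9% and 29.5% of all tested genes did. Their sum was 74.7 ± 3.27 FPKM in control, 78.6 ± 2.23 FPKM in overexpression and 39.6 ± 1.32 FPKM in siRNA (SD, n = 3). The receptor that rose was *FZD5*, which pairs with *WNT5A* in several systems. It measured 1.61, 1.11 and 2.04 CPM in control, 2.07, 2.12 and 2.09 CPM in overexpression and 20.7, 17.4 and 17.5 CPM in siRNA, a rise of 11.6-fold (log2 fold change 3.54 ± 0.15 SE, adjusted p = 1.79e-14). Its difference with overexpression did not pass (0.40 ± 0.22, adjusted p = 0.139), though it did without control replicate 3 (0.62, adjusted p = 0.0411).

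*FZD2* and *FZD8* fell most. *FZD2*, a receptor of both Wnt branches, measured 32.7, 30.8 and 29.8 CPM in control, 23.0, 24.7 and 23.5 CPM in overexpression and 6.21, 6.29 and 6.11 CPM in siRNA. The 3 groups were in separate ranges, with a fall of 5.01-fold in siRNA (log2 fold change -2.32 ± 0.088 SE, adjusted p = 2.21e-15) and of 1.31-fold in overexpression (-0.39 ± 0.074, adjusted p = 0.000219). *FZD8*, a receptor that binds many ligands, measured 3.21, 4.78 and 2.92 CPM in control, 5.75, 7.34 and 6.84 CPM in overexpression and 1.01, 0.779 and 0.582 CPM in siRNA. It fell 4.57-fold with siRNA (log2 fold change -2.19 ± 0.26 SE, adjusted p = 2.54e-07) and rose 1.83-fold with overexpression (0.87 ± 0.17, adjusted p = 0.000359), again without overlap of the groups.

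The most abundant frizzled was *FZD7*, a receptor known from stem cells, with 32.0 ± 1.53 FPKM in control. It measured 146, 140.3 and 138 CPM in control, 149, 151 and 156 CPM in overexpression and 76.8, 80.0 and 68.5 CPM in siRNA, and fell 1.88-fold with siRNA (log2 fold change -0.91 ± 0.063 SE, adjusted p = 5.55e-11). Its share of all frizzled FPKM was nevertheless close to the same in the 3 groups, at 42.8% ± 0.173, 43.9% ± 0.609 and 42.8% ± 1.11. *FZD2* went from 25.9% ± 0.567 of that sum in control to 9.72% ± 0.423 in siRNA, and *FZD5*, at 0.439% ± 0.131 in control, made up 9.67% ± 0.914 in siRNA.

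The other frizzleds moved less than 2-fold. *FZD1* rose with overexpression (0.39 ± 0.060, adjusted p = 2.72e-05) and fell with siRNA (-0.56 ± 0.061, adjusted p = 1.01e-07), from 149.8 ± 3.55 CPM in control. *FZD4*, the receptor of the blood vessel ligand norrin as well as of Wnts, fell with siRNA (-0.75 ± 0.13, adjusted p = 2.97e-05); with overexpression (-0.24 ± 0.12, adjusted p = 0.101) it passed only without control replicate 3 (-0.36, adjusted p = 0.0133). *FZD10* fell in both comparisons (-0.96 ± 0.26, adjusted p = 0.00428 with overexpression and -0.88 ± 0.26, adjusted p = 0.00553 with siRNA). *FZD6* rose with overexpression (0.79 ± 0.21, adjusted p = 0.00368) and did not pass with siRNA (0.19 ± 0.22, adjusted p = 0.491), and *FZD3*, a receptor of planar cell polarity, passed in neither (0.24 ± 0.24, adjusted p = 0.45 and 0.49 ± 0.23, adjusted p = 0.0726). These last 3 receptors stood at 1.12 to 2.56 CPM in control.

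Of the 4 co-receptors, 3 fell and 1 rose in the siRNA libraries, where 59.4% of all tested genes changed, and the fall of *LRP6* was lost under 12 of 19 alternatives. *ROR2*, a receptor tyrosine kinase that binds *WNT5A*, measured 178, 191 and 184 CPM in control, 211, 199 and 203 CPM in overexpression and 76.5, 89.8 and 74.9 CPM in siRNA. All siRNA libraries lay below all others (log2 fold change -1.20 ± 0.067 SE, adjusted p = 1.82e-12). Its relative *ROR1* measured 19.3, 20.1 and 17.3 CPM in control, 22.4, 21.0 and 22.1 CPM in overexpression and 7.76, 9.17 and 7.63 CPM in siRNA, with the same order of groups (log2 fold change -1.21 ± 0.099 SE, adjusted p = 9.48e-10). With overexpression both were above all control libraries, but neither passed (0.15 ± 0.065, adjusted p = 0.0649 for *ROR2* and 0.21 ± 0.087, adjusted p = 0.055 for *ROR1*), except without siRNA replicate 2, when the adjusted p was 0.025 and 0.0418, and, for *ROR2*, in a fit of only the control and overexpression libraries (0.14, adjusted p = 0.0396).

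*LRP5*, a co-receptor of the beta-catenin branch, rose with siRNA from 82.0 ± 8.07 to 123 ± 15.4 CPM (log2 fold change 0.59 ± 0.081 SE, adjusted p = 3.11e-06). With overexpression it fell to 71.0 ± 1.38 CPM (-0.21 ± 0.083, adjusted p = 0.0441), a call lost without any 1 of 6 libraries: control replicate 2, control replicate 3, any overexpression replicate or siRNA replicate 1 (adjusted p between 0.057 and 0.168). *LRP6*, which acts in the same complex, rose with overexpression (0.35 ± 0.083, adjusted p = 0.00202) and fell slightly with siRNA (-0.20 ± 0.085, adjusted p = 0.0458). That fall overlapped the control libraries, was -0.092 without control replicate 1 (adjusted p = 0.265), and was lost as well without siRNA replicate 2, siRNA replicate 3 or any overexpression replicate (adjusted p between 0.0545 and 0.155). Of the FPKM of these 4 co-receptors, *ROR2* made up 63.3% ± 0.564 in control and 38.2% ± 1.34 in siRNA, and *LRP5* 23.0% ± 1.86 and 47.7% ± 1.41.

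**Figure D3:**
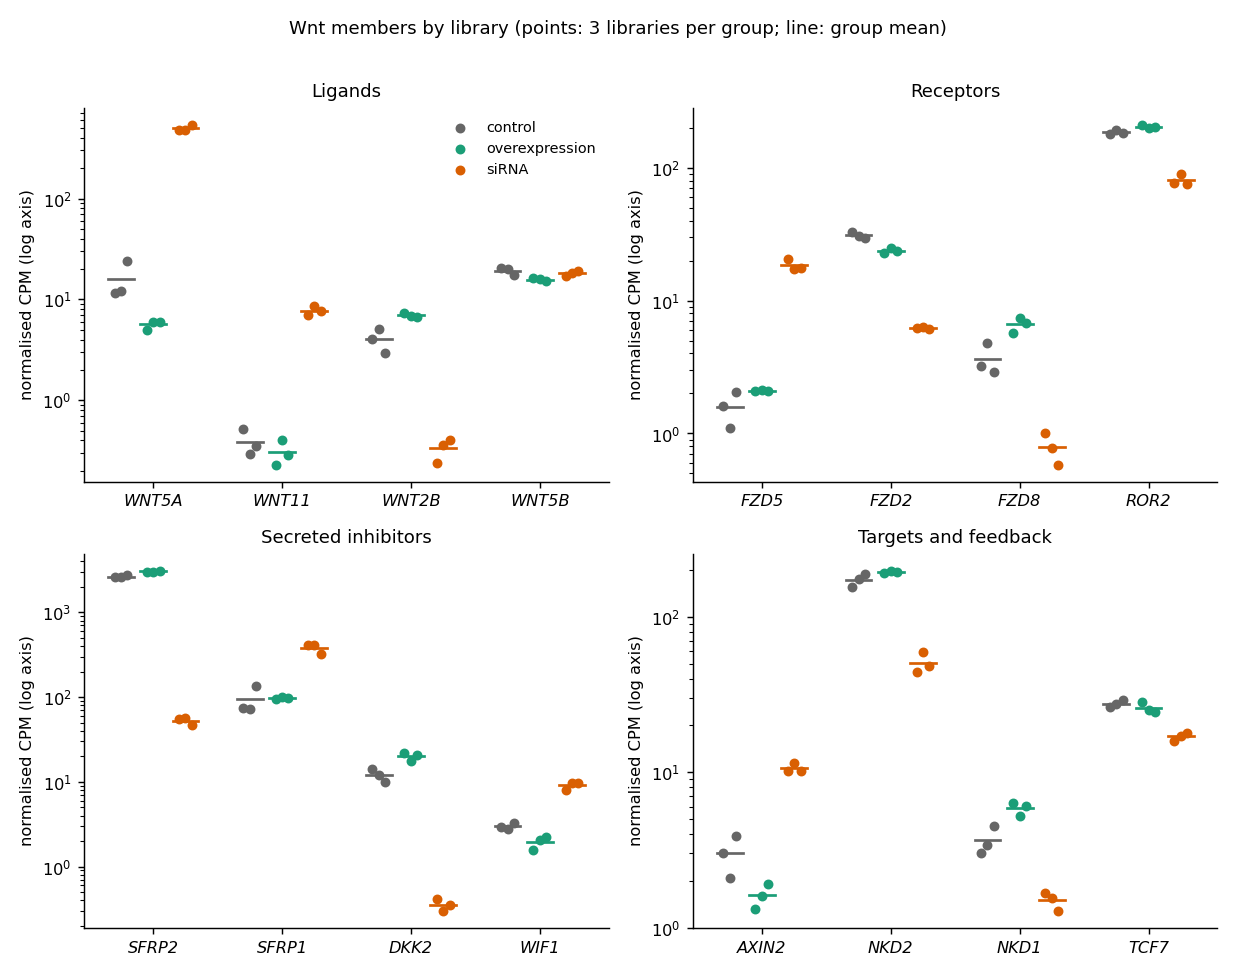
Normalised CPM (vertical log axes) of 16 Wnt members in every library, with 3 points per group and a line at the group mean, in panels for ligands, receptors, secreted inhibitors, and targets and feedback regulators. The siRNA points of *WNT5A* lie between 475 and 539 CPM, above all other libraries, and those of *SFRP2* between 46.7 and 55.9 CPM, below all other libraries.

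The secreted inhibitors held both the most abundant member and the one that fell most. *SFRP2*, which binds ligands through a frizzled-like domain and can also enhance signalling in some settings, had 1533 ± 37.0 FPKM in control, above 99.5% of the genes in the table. It measured 2601, 2578 and 2756 CPM in control, 3028, 2991 and 3083 CPM in overexpression and 54.7, 55.9 and 46.7 CPM in siRNA. The siRNA libraries had a 50.5-fold lower level (log2 fold change -5.66 ± 0.080 SE, adjusted p = 4.09e-22), the 60th largest change in size of the 12721 tested genes. The small rise with overexpression (0.20 ± 0.064, adjusted p = 0.0146) was lost without control replicate 2 (adjusted p = 0.0694) and without overexpression replicate 3 (adjusted p = 0.0658), and with the overexpression libraries summed to 1 (adjusted p = 0.194).

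*SFRP1* and *SFRP4* are relatives of *SFRP2* that kept or gained expression. *SFRP1*, a secreted frizzled-related protein known in human and mouse fat, measured 75.2, 73.3 and 135 CPM in control, 94.1, 99.7 and 97.6 CPM in overexpression and 407, 412 and 318 CPM in siRNA. It rose 4.01-fold with siRNA (log2 fold change 2.0 ± 0.26 SE, adjusted p = 0.00054). With overexpression it did not pass (0.039 ± 0.26, adjusted p = 0.916), and control replicate 3 decided that: without it the difference was 0.39 with an adjusted p of 0.00188. *SFRP4* measured 242, 253 and 305 CPM in control, 227, 240.2 and 225 CPM in overexpression and 320.1, 319.5 and 269.6 CPM in siRNA.

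The siRNA and control ranges of *SFRP4* overlapped (log2 fold change 0.19 ± 0.080 SE, adjusted p = 0.0542), but the difference passed without control replicate 3 (0.29, adjusted p = 0.00065) and without siRNA replicate 3 (0.26, adjusted p = 0.00885). Its small fall with overexpression (-0.21 ± 0.081, adjusted p = 0.0387) was lost without control replicate 3, without any overexpression replicate (adjusted p between 0.0527 and 0.231) and with those libraries summed to 1 (adjusted p = 0.24). In FPKM the SFRP family with *FRZB* summed to 1743 ± 60.9 in control, 1970.4 ± 24.3 in overexpression and 337 ± 28.8 in siRNA (SD, n = 3). *SFRP2* made up 88.0% ± 1.17 of that in control, 90.2% ± 0.402 in overexpression and 9.01% ± 0.136 in siRNA, where *SFRP4* made up 62.2% ± 0.765 and *SFRP1* 28.2% ± 1.01.

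*SFRP5*, an inhibitor described as an adipokine in mice, was the 1 member that rose at least 2-fold with overexpression. It measured 1.78, 2.28 and 1.22 CPM in control, 5.23, 5.91 and 7.01 CPM in overexpression and 0.358, 0.479 and 0.640 CPM in siRNA. The 3 groups did not overlap, with a rise of 3.43-fold in overexpression (log2 fold change 1.78 ± 0.20 SE, adjusted p = 4.02e-07) and a fall of 3.53-fold in siRNA (-1.82 ± 0.32, adjusted p = 4.87e-05). *FRZB*, also called sFRP3 and known from cartilage, measured 0.918, 0.875 and 0.525 CPM in control, 1.15, 0.917 and 1.33 CPM in overexpression and 2.51, 2.88 and 2.97 CPM in siRNA. It rose with siRNA (log2 fold change 1.84 ± 0.24 SE, adjusted p = 1.26e-06), and control and overexpression overlapped (0.55 ± 0.29, adjusted p = 0.123).

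*WIF1*, which binds ligands directly, measured 2.93, 2.80 and 3.26 CPM in control, 1.55, 2.06 and 2.26 CPM in overexpression and 8.06, 9.65 and 9.72 CPM in siRNA. The groups were again in separate ranges, with a rise in siRNA (log2 fold change 1.61 ± 0.14 SE, adjusted p = 4.49e-09) and a fall in overexpression (-0.61 ± 0.19, adjusted p = 0.0105) that was lost without overexpression replicate 1 (-0.47, adjusted p = 0.0672).

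The dickkopf proteins act on *LRP5* and *LRP6* rather than on the ligands, except *DKK3*, whose part in Wnt signalling is unclear. *DKK2* measured 14.1, 12.2 and 9.85 CPM in control, 21.7, 17.8 and 21.0 CPM in overexpression and 0.418, 0.300 and 0.349 CPM in siRNA. It was almost lost in the siRNA libraries, 33.2-fold lower (log2 fold change -5.05 ± 0.23 SE, adjusted p = 4.66e-14), and rose 1.67-fold with overexpression (0.74 ± 0.11, adjusted p = 1.87e-05). *DKK3*, behind only *SFRP2* and *SFRP4* among the members with 114 ± 2.07 FPKM in control, measured 262, 264 and 279 CPM in control, 327, 316 and 311 CPM in overexpression and 283, 287 and 252 CPM in siRNA. Its siRNA and control ranges overlapped (0.031 ± 0.061, adjusted p = 0.681, 95% interval -0.096 to 0.16). The rise with overexpression (0.24 ± 0.061, adjusted p = 0.00252) was lost with those libraries summed to 1 (adjusted p = 0.0827). *DKK1* had 1 count in all 9 libraries together.

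R-spondins amplify Wnt signalling by sparing frizzled receptors from turnover. *RSPO1* measured 7.40, 7.41 and 6.36 CPM in control, 3.56, 3.38 and 2.67 CPM in overexpression and 6.39, 6.35 and 5.47 CPM in siRNA. It fell 2.2-fold with overexpression, without overlap of the groups (log2 fold change -1.14 ± 0.14 SE, adjusted p = 2.33e-06), and the siRNA range overlapped that of the control (-0.22 ± 0.13, adjusted p = 0.157). *RSPO3*, the R-spondin of blood vessels and placenta, measured 0.631, 0.584 and 0.525 CPM in control, 1.21, 1.09 and 1.04 CPM in overexpression and 2.09, 1.68 and 1.57 CPM in siRNA. It rose in both, 3.04-fold with siRNA (log2 fold change 1.60 ± 0.26 SE, adjusted p = 2.38e-05) and 1.91-fold with overexpression (0.93 ± 0.29, adjusted p = 0.0117), the latter without an adjusted p under 0.05 in DESeq2 (0.0723). *RSPO1* was thus 73.2% ± 2.38 of the R-spondin FPKM in control, 41.0% ± 3.48 in overexpression and 47.5% ± 2.52 in siRNA.

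Genes that beta-catenin switches on, or that feed back on the pathway, did not move together. *AXIN2*, a scaffold of the complex that degrades beta-catenin and a widely used readout of that branch, measured 3.04, 2.10 and 3.91 CPM in control, 1.32, 1.61 and 1.91 CPM in overexpression and 10.2, 11.4 and 10.1 CPM in siRNA. The groups did not overlap: it rose 3.50-fold with siRNA (log2 fold change 1.81 ± 0.16 SE, adjusted p = 4.05e-09) and fell 1.87-fold with overexpression (-0.90 ± 0.22, adjusted p = 0.00225). Its span overlaps *CEP112*, which had 170, 198 and 206 counts over the control, overexpression and siRNA libraries.

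*NKD1* and *NKD2*, which bind dishevelled and dampen the signal, both fell with siRNA. *NKD2*, among the 5 most abundant members with 88.1 ± 6.87 FPKM in control, measured 156, 176 and 189 CPM in control, 192, 197 and 194 CPM in overexpression and 43.9, 59.7 and 48.6 CPM in siRNA. It fell 3.42-fold with siRNA (log2 fold change -1.78 ± 0.091 SE, adjusted p = 5.97e-12). With overexpression it did not pass (0.16 ± 0.085, adjusted p = 0.127), but did without control replicate 3 (adjusted p = 0.0364) or siRNA replicate 2 (adjusted p = 0.0482). *NKD1* measured 3.04, 3.38 and 4.49 CPM in control, 6.32, 5.22 and 6.08 CPM in overexpression and 1.67, 1.56 and 1.28 CPM in siRNA, in 3 separate ranges, with a fall in siRNA (log2 fold change -1.27 ± 0.20 SE, adjusted p = 1.51e-05) and a rise in overexpression (0.69 ± 0.16, adjusted p = 0.00126).

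The transcription factors that take up beta-catenin moved less than 2-fold. *TCF7* fell with siRNA from 27.6 ± 1.41 to 17 ± 0.977 CPM (log2 fold change -0.70 ± 0.083 SE, adjusted p = 2.89e-07) and did not pass with overexpression (-0.092 ± 0.079, adjusted p = 0.357). *LEF1* was at 1.95 ± 0.422 CPM in control, 2.02 ± 0.108 CPM in overexpression and 2.71 ± 0.0932 CPM in siRNA. It passed with siRNA (0.47 ± 0.19, adjusted p = 0.041) but lost the call when any library other than control replicate 3 was left out (adjusted p between 0.0515 and 0.206), and with overexpression it did not pass (0.045 ± 0.20, adjusted p = 0.872).

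Set against each other directly, siRNA and overexpression libraries differed in 34 of 38 tested members, 15 higher and 19 lower in siRNA, beside 66.7% of all tested genes (33.9% higher and 32.8% lower). At least 2-fold differences were found in 22 members (10 higher and 12 lower), beside 18.7% of all tested genes (9.17% higher and 9.54% lower), and the libraries did not overlap in 35, beside 72.5%. *WNT5A* was 88.3-fold higher in siRNA (log2 fold change 6.46 ± 0.29 SE, adjusted p = 1.05e-06), and *WNT11* (4.62 on the log2 scale), *FZD5* (3.14), *AXIN2* (2.71) and *WIF1* (2.22) were higher as well. The difference of *WNT11* was built in by the expression filter here too. *SFRP2* was 57.9-fold lower (log2 fold change -5.86 ± 0.080 SE, adjusted p = 2.4e-22), and *DKK2* (-5.80), *WNT2B* (-4.34), *SFRP5* (-3.60) and *FZD8* (-3.06) were lower.

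*WNT7B* passed the test in this direct comparison but in neither comparison with control. It was higher in siRNA (log2 fold change 3.76 ± 0.93 SE, adjusted p = 0.0079), a call lost with the overexpression libraries summed to 1 (adjusted p = 0.0613) and a difference of 3.15 without siRNA replicate 3. *PORCN* (1.22 ± 0.092, adjusted p = 1.87e-10) and *WNT4* (1.12 ± 0.15, adjusted p = 1.92e-06) were higher and *FZD7* (-1.02 ± 0.063, adjusted p = 6.75e-12) was lower, each by at least 2-fold only here. *WNT3*, *FZD3*, *FZD10* and *LEF1* did not pass (adjusted p of 0.74, 0.338, 0.811 and 0.0557). *WNT5B* passed narrowly (0.21 ± 0.090, adjusted p = 0.0437) and lost the call when any overexpression replicate, control replicate 2, siRNA replicate 2 or siRNA replicate 3 was left out (adjusted p between 0.0561 and 0.154). Leaving out a library also ended the calls of *RSPO3* (without overexpression replicate 3 or siRNA replicate 1, adjusted p = 0.0521 and 0.08) and *FZD6* (without overexpression replicate 1, adjusted p = 0.065), and gave *LEF1* one without control replicate 3 (adjusted p = 0.047).

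The 11 members below the filter had at most 11 counts in any library. *WNT16* had 10 counts over the control libraries, 8 over overexpression and 0 over siRNA, and *WNT10A*, a relative of *WNT10B*, had 14, 9 and 0. The 95% counting interval of the ratio of siRNA to control ended at 0.456 for *WNT16* and at 0.308 for *WNT10A*, from counting error only. *WNT2* had 19, 5 and 10 counts, a ratio of 0.261 for overexpression to control with a 95% counting interval of 0.0762 to 0.723. *WNT6* had 24, 29 and 15 counts and *FZD9* 18, 20 and 16, ratios to control whose intervals included no change. *WNT7A* had 11 counts in all 9 libraries, *RSPO4* 11, *WNT1* 2, and *DKK1*, *WNT3A* and *WNT8B* 1 each, too few to compare.

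Other genes of the pathway, listed by function, showed how far the rest of it moved. Of 126 listed symbols 115 were in the table and 103 were tested. With siRNA 37 rose and 36 fell, 70.9% in all beside 59.4% of all tested genes. At least 2-fold, 19 of them changed, 18.4% beside 15.2%. With overexpression 30 rose and 30 fell, 58.3% in all beside 47.3% of all tested genes. At least 2-fold, 6 changed, 5.83% beside 4.5%. The 2-fold shares of the list thus lay near those of all tested genes. The overexpression count was lower with those libraries summed to 1, a fit with 1 library in that group.

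Outside the cell, 13 of 14 tested modulators changed with siRNA, 92.9% beside 59.4% of all tested genes, and 8 at least 2-fold, 57.1% beside 15.2%. *TRABD2B*, a protease that inactivates ligands, fell (-3.31 ± 0.34, adjusted p = 2.9e-08; -3.97 without siRNA replicate 1). *TPBG*, a membrane inhibitor of Wnt signalling, rose (2.40 ± 0.072, adjusted p = 4.22e-17), as did *NOTUM*, which strips the fatty acid from ligands and is induced by beta-catenin in other tissues (1.96 ± 0.20, adjusted p = 2.72e-08). With overexpression *TPBG* fell (-1.03 ± 0.083, adjusted p = 4.12e-09), *GPC6*, a surface proteoglycan that can bind ligands, rose (1.04 ± 0.061, adjusted p = 3.57e-11) and *DKKL1*, a distant relative of the dickkopfs, fell (-1.19 ± 0.25, adjusted p = 0.000509). In siRNA against overexpression the largest differences were *TRABD2B* (-4.21 ± 0.30, adjusted p = 6.59e-11; -4.87 without siRNA replicate 1), *TPBG* (3.43 ± 0.078, adjusted p = 4.1e-19) and *GPC6* (-2.84 ± 0.070, adjusted p = 1.3e-18). Genes of R-spondin reception and receptor turnover moved little: *LGR4*, an R-spondin receptor, and *RNF43* and *ZNRF3*, ligases that remove frizzleds, had adjusted p of 0.275, 0.843 and 0.536 with siRNA. With overexpression these were 0.0853, 0.0688 and 0.597. In siRNA against overexpression *LGR4* was lower (-0.41 ± 0.12, adjusted p = 0.0049) and *RNF43* higher (0.77 ± 0.31, adjusted p = 0.0324), the latter lost without overexpression replicate 1 or 3 or siRNA replicate 1 or 3 (adjusted p between 0.0839 and 0.134).

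Inside the cell the changes were mostly small. Of 37 tested genes between receptor and beta-catenin, 25 changed with siRNA, 67.6% beside 59.4% of all tested genes, but only 2 at least 2-fold, 5.41% beside 15.2%. Of these, *TLE3*, a co-repressor of TCF factors, rose (1.09 ± 0.076, adjusted p = 7.1e-11) and so did *BCL9*, a co-activator of beta-catenin (1.08 ± 0.068, adjusted p = 1.23e-11). *TCF7L1*, a repressing TCF, fell (-0.94 ± 0.082, adjusted p = 2.64e-09). With overexpression 20 changed, 54.1% beside 47.3%, by at most 0.60 in size, led by *TNKS2*, which marks axin for degradation (0.60 ± 0.079, adjusted p = 3.81e-06), *BCL9L* (-0.57 ± 0.061, adjusted p = 2.52e-07) and *SENP2*, a SUMO protease (0.48 ± 0.086, adjusted p = 0.000116). In siRNA against overexpression *TLE3* (1.57 ± 0.078, adjusted p = 2.01e-13), *TLE2* (1.33 ± 0.40, adjusted p = 0.00607) and *BCL9* (1.31 ± 0.069, adjusted p = 4.52e-13) were higher.

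In the branch without beta-catenin 20 of 29 tested genes changed with siRNA, 69% beside 59.4% of all tested genes. Only 2 changed at least 2-fold, 6.9% beside 15.2%. *NFATC2*, a transcription factor activated by calcium, rose (2.12 ± 0.098, adjusted p = 6.31e-14), and of the calcium-dependent kinases *CAMK2G* fell (-1.39 ± 0.068, adjusted p = 1.67e-13) and *CAMK2A* rose (0.99 ± 0.11, adjusted p = 1.43e-07). The same 3 led in siRNA against overexpression (2.39 ± 0.10, adjusted p = 1.17e-14 for *NFATC2*, -1.43 ± 0.067, adjusted p = 7.75e-14 for *CAMK2G* and 1.39 ± 0.12, adjusted p = 9.62e-10 for *CAMK2A*). With overexpression 17 changed, 58.6% beside 47.3%, and 0 at least 2-fold, beside 4.5% of all tested genes. The largest changes were in the planar polarity genes *VANGL2* (0.75 ± 0.28, adjusted p = 0.0308) and *CELSR2* (-0.65 ± 0.21, adjusted p = 0.0141) and in *NFATC4* (-0.65 ± 0.070, adjusted p = 2.58e-07). The call of *VANGL2* was lost without control replicate 2 or 3 or overexpression replicate 1 or 3 (adjusted p between 0.0695 and 0.174), and that of *CELSR2* without control replicate 1 or overexpression replicate 1 (adjusted p = 0.0607 and 0.0591).

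**Figure D4:**
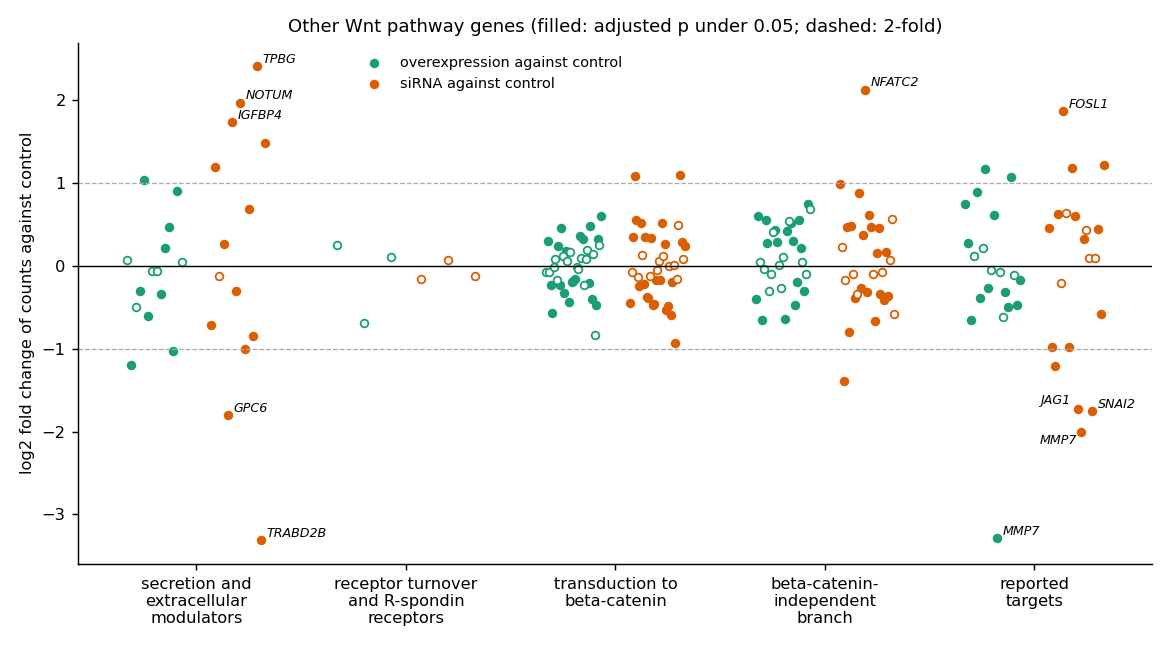
Fitted log2 fold change (vertical axis) of the 103 tested Wnt pathway genes outside the members, in 5 functional parts, for overexpression against control and siRNA against control. Filled points passed an adjusted p of 0.05, dashed lines mark a 2-fold change, and genes beyond 1.5 on the log2 scale are named. Of the siRNA points 19 are filled and beyond the dashed lines, 8 of them among the extracellular modulators and 7 among the reported targets, and of the overexpression points 6 are.

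Genes reported as beta-catenin targets in other cells went both ways, as *AXIN2* and *NKD2* did. Of 20 tested, 8 rose and 7 fell with siRNA, 75% in all beside 59.4% of all tested genes. *FOSL1*, a subunit of the AP-1 factor, rose (1.86 ± 0.065, adjusted p = 5.23e-16), and *SNAI2*, a transcription factor of mesenchymal cells, fell (-1.76 ± 0.062, adjusted p = 6.31e-16), as did *MMP7*, a matrix protease with 42, 4 and 10 counts over the control, overexpression and siRNA libraries (-2.0 ± 0.65, adjusted p = 0.0134). Its siRNA value rested on replicate 3, without which the difference was -6.81 with an adjusted p of 2.31e-05. The call ended when control replicate 2, siRNA replicate 1 or siRNA replicate 2 was left out (adjusted p between 0.0504 and 0.0571). With so few counts elsewhere, *MMP7* passed the expression filter mainly through the control libraries, which favours a fall in both other groups. With overexpression 6 rose and 8 fell, 70% in all beside 47.3%, among them *GREM1*, an antagonist of bone morphogenetic proteins, which rose (1.17 ± 0.067, adjusted p = 2.06e-11), *SP5*, which rose (1.07 ± 0.33, adjusted p = 0.0108; adjusted p = 0.101 in DESeq2), and *MMP7*, which fell (-3.29 ± 0.79, adjusted p = 0.00249). In siRNA against overexpression *FOSL1* was higher (2.25 ± 0.066, adjusted p = 2.92e-17) and *JAG1*, a Notch ligand (-2.33 ± 0.081, adjusted p = 4.01e-16), and *GREM1* (-2.15 ± 0.069, adjusted p = 1.34e-16) were lower.

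All members together took 0.418% to 0.443% of the counts in the control libraries, 0.473% to 0.482% in overexpression and 0.211% to 0.221% in siRNA, with *SFRP2* the largest contributor outside the siRNA group. Of the members, 15 have spans that overlap another gene in the RefSeq annotation of the pig, among them *WNT5B*, *FZD1*, *FZD8*, *DKK2*, *WNT7B*, *LEF1* and *LRP5* besides those named above, and without the strand used in counting, reads of such pairs cannot be told apart.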

How the data were processed

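Bulk RNA was sequenced on a BGISEQ500 instrument. The authors checked reads with FastQC and aligned them with HISAT, and the table they deposited holds an estimated count and an FPKM value, scaled by the authors for gene length and library size, for each of 16562 genes in 9 libraries. No source used here names the tool that counted reads, the genome build, the annotation or the use of strand. The study's methods describe template-switched cDNA from an oligo(dT) primer, whereas the labels describe depletion of ribosomal RNA. Of the deposited estimated counts 5.38% were not whole and were rounded, but those of the 49 members were whole. All members and 16136 of the symbols matched the RefSeq gene table of the pig, used for names and overlaps only.

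Counts were tested in R 4.3.3 with edgeR 4.0.16, with TMM factors, filterByExpr at its defaults, dispersions estimated robustly and the quasi-likelihood F test. All 9 libraries entered the same fit without covariates, and p-values had Benjamini-Hochberg adjustment over the 12721 genes kept. The biological coefficient of variation was 0.0607. Standard errors were taken as the size of the log2 fold change over the square root of F. Levels are CPM with TMM factors, as single libraries or mean ± SD. Ratios of members below the filter have exact 95% binomial intervals, which cover counting error only. The scripts were tested on simulated data.

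The members, the pathway list and the marker lists were chosen with earlier results of these data known. Library values are given for members that passed at least 2-fold in any of the 3 comparisons and for the 5 with the highest mean FPKM in control. Pathway genes are named where they were the 3 largest changes, among those that passed, in each of 5 parts of the list and each comparison. The values of *WLS*, *ZNRF3*, *CEP112*, *ST7L* and the named markers had been seen when these were chosen. Alternatives were DESeq2 1.42.0, unadjusted library totals, a run with no expression filter, a stricter filter with a minimum count of 50, fits of only the 2 groups compared, edgeR's exact test, a block for the replicate number, limma 3.58.1 on log2(FPKM + 1) and log2(FPKM + 0.1), and each library left out in turn. The overexpression libraries summed to 1 were added after the data were seen.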

Additional observations from a re-analysis of the deposited data

How the results depend on the processing

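Over all alternatives, 2709 values of single genes kept their direction and call, 101 no longer passed, 26 newly passed and 12 turned sign. The cause was not tested, and none of the values that turned sign belonged to a change that passed. With single libraries left out, overexpression against control ran from -0.081 to 0.27 for *WNT10B*, from -0.11 to 0.12 for *WNT9A*, from -0.11 to 0.39 for *SFRP1* and from -0.10 to 0.21 for *LEF1*. The lowest values were without control replicate 1 for *WNT10B* and *LEF1*, without control replicate 2 for *SFRP1* (-0.11 also without control replicate 1), and for *WNT9A* without overexpression replicate 1 (-0.024 without control replicate 1). *FZD3* turned to -0.0040 and -0.016 in limma on log2(FPKM + 1) and log2(FPKM + 0.1). The siRNA difference of *DKK3* ran from -0.0021, without siRNA replicate 2, to 0.088. Between siRNA and overexpression *WNT3* ran from -0.46 to 0.17 and *FZD10* from -0.11 to 0.33, turning sign without overexpression replicate 3, and *FZD10* also without siRNA replicate 2 (-0.076). On the log2(FPKM + 1) scale, which understates changes of low genes, 12 members changed at least 2-fold with siRNA in place of 20, and 1 with overexpression in place of 3. With the overexpression libraries summed to 1, which leaves 1 library in that group, fewer pathway genes changed with overexpression. With single libraries left out, the members changed at least 2-fold with overexpression numbered 3 to 6 (6 without control replicate 2, and 5 without overexpression replicate 3), while the members changed numbered 18 to 24 with overexpression, 29 to 32 with siRNA and 32 to 35 between siRNA and overexpression. No scaling moved the median of all genes by 0.1 on the log2 scale.

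Libraries of the groups share replicate numbers, but correlations showed no clear pairing by number. Deviations of same-numbered libraries from their group means correlated between -0.098 and 0.12, and not every library correlated best with its own number. A shared effect of the replicate number on single genes, such as *WNT7B*, was not tested. With the replicate block 21 members changed with overexpression (4 at least 2-fold), 31 with siRNA (21 at least 2-fold) and 33 between siRNA and overexpression. The block gave *WNT7B* a call in both comparisons with control (adjusted p = 0.00956 and 1.98e-05) and ended those of *SFRP4* with overexpression (0.0595), *LEF1* with siRNA (0.0514) and *WNT5B* between siRNA and overexpression (0.0536). Depth limits the 11 members below the filter.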
